A study of Mus musculus with 4 samples.

Results

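The 10 genes described here are Slc7a11, Gclc, Gclm, Gsr, Gsto1, Prdx1, Srxn1, Txnrd1, Nqo1 and Hmox1, a set of known targets of the transcription factor NRF2 and of glutathione genes, taken by symbol from the 32285 genes counted in each library. All 10 were found once each in the gene list. They were measured by droplet single-cell RNA sequencing of pancreatic islets from 8-week-old wild-type male C57BL6J mice, cultured for 24 h and then dispersed with Accutase. There were 4 conditions with 1 library each: DMSO vehicle at 3.9 mM glucose, 1 mM imeglimin at 3.9 mM glucose, DMSO vehicle at 11.1 mM glucose and 1 mM imeglimin at 11.1 mM glucose. Imeglimin is an oral glucose-lowering drug given in type 2 diabetes. The labels do not say how many mice were pooled in a library, and with 1 library per condition no difference could be set against a spread between replicates, so no p-value is given and every interval covers counting error alone.

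NRF2, encoded by Nfe2l2, is held at a low level by KEAP1, which marks it for degradation. Oxidants and electrophiles modify KEAP1, and NRF2 then enters the nucleus and, with a small MAF protein, binds antioxidant response elements near its target genes, while BACH1 represses some of the same elements. Glutathione is made from cysteine that enters cells mainly as cystine, and beta cells are known for low levels of several enzymes that remove hydrogen peroxide. Other stress regulators act on some of these genes as well, for example ATF4 on Slc7a11 and heat shock and haem signals on Hmox1.

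The deposited barcodes held 91245564 to 106092232 unique molecular identifiers (UMIs, each standing for 1 counted RNA molecule) per library, and 7166 to 8755 cells per library were kept, with median depths of 8832 to 12035 UMIs. Clusters were given to 6 classes that had at least 50 cells in every library. Cells left unnamed entered no class sum. They were 13.5% and 22.5% of kept cells at 3.9 mM glucose without and with imeglimin, and 11.4% and 9.66% at 11.1 mM. These cells held from 4.81% (Hmox1, imeglimin at 11.1 mM) to 26.9% (Slc7a11, imeglimin at 3.9 mM) of a gene's UMIs in a library. The beta-like class held 4619 cells from vehicle at 3.9 mM glucose, 4461 from imeglimin at 3.9 mM, 4912 from vehicle at 11.1 mM and 5510 from imeglimin at 11.1 mM. Ins2 stood at 77340 to 252400 CPM (UMIs scaled to a common library size) in the beta-like sums, Gcg at 147300 to 167000 CPM in the alpha-like sums, Lyz2 at 1114 to 1965 CPM in the macrophage-like sums and Pecam1 at 610.1 to 1334 CPM in the endothelial-like sums. The delta-like sums held Sst at 14110 to 38550 CPM and also Ins2 at 47650 to 115000 CPM. Most beta-like clusters were filled mainly by 1 library, so condition and cluster coincide within the class. The labels give no batch, and condition, culture and library cannot be told apart.

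In the coordinates of the GRCm38 build, with GENCODE vM21 gene models, Slc7a11 (ENSMUSG00000027737) lies at chr3:49892526-50443614 on the minus strand, Gclc (ENSMUSG00000032350) at chr9:77754535-77794485 on the plus strand and Gclm (ENSMUSG00000028124) at chr3:122245557-122270732 on the plus strand. Gsr (ENSMUSG00000031584) lies at chr8:33652523-33698163, Gsto1 (ENSMUSG00000025068) at chr19:47854970-47864790, Prdx1 (ENSMUSG00000028691) at chr4:116685544-116700822, Srxn1 (ENSMUSG00000032802) at chr2:152105516-152111376 and Txnrd1 (ENSMUSG00000020250) at chr10:82833951-82897712, each on the plus strand. Nqo1 (ENSMUSG00000003849) lies at chr8:107388225-107403206 on the minus strand and Hmox1 (ENSMUSG00000005413) at chr8:75093621-75100589 on the plus strand. The opposite-strand gene Cfap43 overlaps Gsto1 and stood at 0.0141 to 0.164 CPM in beta-like cells, against 18.4 to 86.7 CPM for Gsto1. Eid3 overlaps Txnrd1 on the same strand and stood at 0.26 to 0.649 CPM, against 109 to 192 CPM for Txnrd1.

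The promoters below are shown because these genes are grouped by shared regulation and, as described further on, did not move together. RefSeq promoters (GRCm38.p6) were matched for 7 of the 10 genes, with 9 start sites in all. Gclc, Hmox1 and Gsr are named only. In each window, the 250 bases before the start, 5 motifs were searched on both strands: the antioxidant response element core TGACNNNGC, the AP-1 element TGANTCA, the CHOP-ATF composite element TGATGNAA, TGACGTCA and CACGTG. The windows are printed without bases at their end that an annotated exon of the gene covers. Where such bases are left out, as in Prdx1, the printed window ends before the start from which positions are counted. Capitals mark the matches, and the windows printed are Gclm at chr3:122245307-122245556 (plus strand), Prdx1 at chr4:116685349-116685543 (plus strand), the Txnrd1 start with a match at chr10:82858956-82859178 (plus strand), Srxn1 at chr2:152105274-152105515 (plus strand), Slc7a11 at chr3:50443615-50443863 (minus strand) and Gsto1, with no match, at chr19:47854723-47854969 (plus strand).
Gclm: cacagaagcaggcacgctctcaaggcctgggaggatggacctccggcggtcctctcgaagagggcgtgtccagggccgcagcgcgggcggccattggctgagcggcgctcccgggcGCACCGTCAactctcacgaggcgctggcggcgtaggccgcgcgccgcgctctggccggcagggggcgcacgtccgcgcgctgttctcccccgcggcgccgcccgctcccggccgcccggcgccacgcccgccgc
Prdx1: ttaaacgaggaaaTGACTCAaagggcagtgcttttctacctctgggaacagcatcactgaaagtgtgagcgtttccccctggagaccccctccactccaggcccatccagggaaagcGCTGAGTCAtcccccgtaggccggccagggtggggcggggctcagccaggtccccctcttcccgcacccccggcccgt
Txnrd1: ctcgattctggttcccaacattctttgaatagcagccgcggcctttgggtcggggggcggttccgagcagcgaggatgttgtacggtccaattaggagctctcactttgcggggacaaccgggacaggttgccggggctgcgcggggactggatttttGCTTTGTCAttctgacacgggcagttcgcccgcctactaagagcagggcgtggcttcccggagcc
Srxn1: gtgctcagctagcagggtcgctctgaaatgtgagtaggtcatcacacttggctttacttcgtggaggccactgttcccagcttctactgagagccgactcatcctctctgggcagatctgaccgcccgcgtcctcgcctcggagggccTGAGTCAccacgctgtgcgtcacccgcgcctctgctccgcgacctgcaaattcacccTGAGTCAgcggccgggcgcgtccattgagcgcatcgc
Slc7a11: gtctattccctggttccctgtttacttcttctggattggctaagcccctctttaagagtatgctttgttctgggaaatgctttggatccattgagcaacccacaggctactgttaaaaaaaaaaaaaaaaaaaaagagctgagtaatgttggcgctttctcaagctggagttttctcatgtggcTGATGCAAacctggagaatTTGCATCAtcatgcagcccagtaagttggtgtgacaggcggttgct
Gsto1: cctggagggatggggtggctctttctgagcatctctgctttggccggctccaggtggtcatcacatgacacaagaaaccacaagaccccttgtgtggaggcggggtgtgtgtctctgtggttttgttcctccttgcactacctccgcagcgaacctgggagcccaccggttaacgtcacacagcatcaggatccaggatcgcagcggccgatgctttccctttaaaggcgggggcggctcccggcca

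The antioxidant response element core was found at −134 in Gclm, −133 in Prdx1 and −92 at 1 of the Txnrd1 starts, counted from the start site, and thus in 3 of the 9 windows, against 10.2% of 32851 mouse promoters. The AP-1 element was found at −102 and −45 in Srxn1 and at −237 and −131 in Prdx1, where the latter match overlaps the antioxidant response element, and 6.75% of promoters hold it. The CHOP-ATF composite element was found in Slc7a11 alone, at −66 and −47, against 3.45% of promoters. TGACGTCA, held by 1.55% of promoters, and CACGTG, held by 6.02%, were in none of the 9 windows. A match is a run of letters and not a shown binding site.

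Each class's UMIs were summed by library and scaled by TMM, which assumes that most genes are level between libraries, to CPM. A gene was counted by size where its ratio was at least 1.5-fold and it reached 20 CPM in either library of the beta-like class, or 50 CPM for the smaller alpha-like and delta-like classes. A gene that reached this level in a single library of a contrast could be counted only in the direction of that library. This holds for all genes tested as well. In beta-like cells 8 of the 10 genes reached that level in each contrast, and Slc7a11 and Nqo1 did not in any. The imeglimin and glucose contrasts share libraries.

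Beta-like cells gave no common direction for these genes. At 11.1 mM glucose, imeglimin had 1 of the 8 genes at least 1.5-fold higher (Gsto1) against 5.23% of 5643 genes tested, and 1 at least 1.5-fold lower (Hmox1) against 4.59%. At 3.9 mM glucose 1 of 8 was higher with imeglimin (Srxn1) against 12.5% of 6003 genes, and 0 were lower against 10.4%. Under vehicle, 11.1 mM against 3.9 mM glucose had 3 of 8 higher (Txnrd1, Hmox1 and Srxn1) against 10.1% of 5909 genes and 1 lower (Gsto1) against 19.7%. Under imeglimin, the same glucose contrast had 0 of 8 higher against 15% of 6044 genes and 1 lower (Gclm) against 24%. Gsto1 stood under 20 CPM in vehicle at 11.1 mM, so in both contrasts with that library it could be counted only in the direction seen. The median log2 ratio of the 8 genes was −0.03 for imeglimin at 11.1 mM, −0.04 at 3.9 mM, 0.22 for glucose under vehicle and 0.07 for glucose under imeglimin, beside medians of all genes tested of 0.10, 0.10, −0.15 and −0.14.

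The scaling matters for ratios near 1.5-fold and for genes that are level in TMM-scaled CPM. Hormone transcripts took 17.5% of beta-like UMIs in vehicle at 3.9 mM glucose, 25.9% in imeglimin at 3.9 mM, 43.8% in vehicle at 11.1 mM and 38.3% in imeglimin at 11.1 mM. Plain CPM moved the log2 ratios of all beta-like genes by −0.03 for imeglimin at 11.1 mM, −0.31 for imeglimin at 3.9 mM, −0.41 for glucose under vehicle and −0.13 for glucose under imeglimin. CPM without hormone and mitochondrial genes moved them by −0.17, −0.15, 0.17 and 0.15 in the same order.

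**Figure D1:**
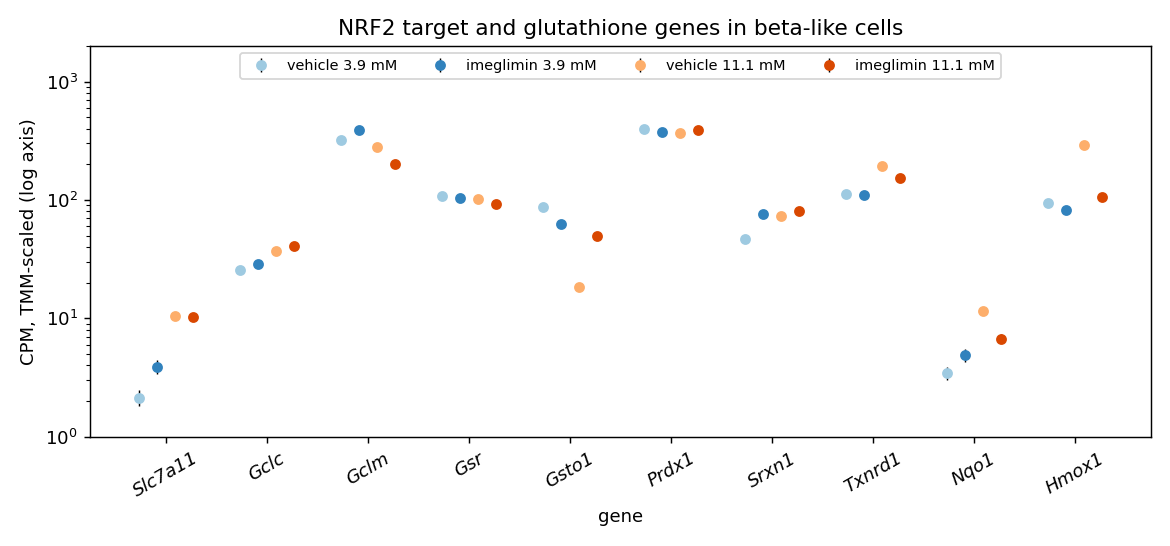
Level of each of the 10 genes in the beta-like sum of each of the 4 libraries, in TMM-scaled CPM on a log axis, with 95% exact Poisson counting intervals as bars. Gsto1 is lowest in vehicle at 11.1 mM glucose (18.4 CPM), where Hmox1 is highest (289 CPM), while Gsr and Prdx1 differ little between libraries.

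Cystine import and glutathione synthesis gave 3 different patterns in beta-like cells. Slc7a11, the cystine/glutamate exchanger subunit xCT, stood at 2.14 CPM in vehicle and 3.88 CPM in imeglimin at 3.9 mM glucose, and at 10.4 CPM in vehicle and 10.3 CPM in imeglimin at 11.1 mM, from 164, 204, 699 and 733 UMIs. Both libraries at 11.1 mM glucose were thus above both at 3.9 mM. Glucose under vehicle gave a log2 ratio of 2.29 (95% counting interval 2.04 to 2.54) and imeglimin at 11.1 mM one of −0.01 (−0.17 to 0.14). Slc7a11 stayed under the level for counting by size. Beta-like Slc7a11 was at 2.23% and 1.27% of its macrophage-like level at 3.9 mM glucose without and with imeglimin and at 6.23% and 3.23% at 11.1 mM. In the same order, the macrophage marker C1qa was at 1.16%, 0.853%, 1.5% and 0.339%. Cd68 was at 1.31%, 1.11%, 1.08% and 1.96%, and Lyz2 at 0.00862%, 0.00779%, 0.0114% and 0.0266%, so the macrophage markers differed in level and direction. The part of macrophage RNA in beta-like Slc7a11 was not tested.

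Gclc, the catalytic subunit of glutamate-cysteine ligase, the rate-limiting enzyme of glutathione synthesis, stood at 25.8 CPM in vehicle and 28.9 CPM in imeglimin at 3.9 mM glucose and at 37.1 CPM and 41.0 CPM at 11.1 mM. In TMM-scaled CPM its order followed glucose first, with log2 ratios of 0.52 under vehicle (0.44 to 0.61) and 0.50 under imeglimin. In plain CPM both libraries at 11.1 mM stayed above both at 3.9 mM, with smaller ratios of 0.12 and 0.37. Without hormone and mitochondrial genes, the glucose ratios of all beta-like genes moved up, as given above. The size of the Gclc glucose ratio under vehicle thus depended on the scaling. With cells thinned to equal depth, 9.20% of vehicle cells had a Gclc UMI at 3.9 mM and 8.96% at 11.1 mM. In imeglimin these shares were 8.69% and 10.8%. The imeglimin ratios of Gclc were 0.14 at 11.1 mM and 0.17 at 3.9 mM on the log2 scale, and they turned to −0.03 at 11.1 mM without hormone and mitochondrial genes and to −0.14 at 3.9 mM in plain CPM.

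Gclm, the modifier subunit of the same ligase, did not follow Gclc. It stood at 322 CPM in vehicle and 387 CPM in imeglimin at 3.9 mM glucose, and at 278 CPM in vehicle and 202 CPM in imeglimin at 11.1 mM. The library with imeglimin at 11.1 mM was the lowest of the 4 and that with imeglimin at 3.9 mM the highest. Imeglimin gave a log2 ratio of −0.46 (−0.49 to −0.43) at 11.1 mM and 0.26 (0.24 to 0.29) at 3.9 mM, where plain CPM gave −0.04. Under imeglimin, Gclm was lower at 11.1 mM than at 3.9 mM glucose by a log2 ratio of −0.94 (−0.97 to −0.91), the 1 ratio of at least 1.5-fold in that contrast among the 8 genes at 20 CPM.

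Of the enzymes that use or recycle glutathione, Gsr was level in TMM-scaled CPM and Gsto1 moved the most. Gsr, glutathione reductase, which restores glutathione from its oxidized form, stood at 109 and 105 CPM at 3.9 mM glucose without and with imeglimin and at 102 and 93.2 CPM at 11.1 mM, and its log2 ratios ran from −0.17 to −0.06 over the 4 contrasts. In plain CPM it was not level, at 133 and 103 at 3.9 mM and at 94.2 and 84.1 at 11.1 mM in the same order. After thinning, the shares of cells with a Gsr UMI were 33.0%, 27.8%, 24.5% and 23.1%.

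Gsto1, an omega-class glutathione transferase that reduces dehydroascorbate, stood at 86.7 CPM (84.6 to 88.8) in vehicle and 63.1 CPM (60.9 to 65.2) in imeglimin at 3.9 mM glucose, and at 18.4 CPM (17.4 to 19.5) in vehicle and 49.8 CPM (48.2 to 51.4) in imeglimin at 11.1 mM. Vehicle at 11.1 mM glucose was the low library, and the other 3 were from 2.71-fold above it upwards. Imeglimin at 11.1 mM gave a log2 ratio of 1.44 (1.34 to 1.53) and at 3.9 mM one of −0.46 (−0.52 to −0.40), a difference of 1.89 between the glucose levels that has no test. High against low glucose gave −2.24 (−2.32 to −2.15) under vehicle and −0.34 (−0.41 to −0.27) under imeglimin. Over the 10 alternative treatments of the data the ratio of imeglimin at 11.1 mM lay between 1.26 and 1.48, and that of glucose under vehicle between −2.64 and −2.06.

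The Gsto1 difference was spread over many cells. The share of beta-like cells with at least 1 Gsto1 UMI was 66.9%, 45.2%, 19.4% and 39.2% in vehicle and imeglimin at 3.9 mM and vehicle and imeglimin at 11.1 mM glucose. With cells thinned to 3000 UMIs, so that depth was equal, and the 34, 122, 48 and 74 shallower cells left out, the shares were 26.0%, 16.6%, 4.73% and 11.5%. In alpha-like cells, the class with the lowest Gsto1, the thinned shares were 4.38%, 7.57%, 2.97% and 4.69%, at median depths of 5874 to 7742.5 UMIs before thinning against 10084 to 12968 UMIs in beta-like cells. Cluster 19, led by Pdyn, Gm27168 and Bnip3, held many cells of both libraries at 11.1 mM, and within it Gsto1 stood at 23.3 plain CPM in vehicle and 38.1 in imeglimin. Within cluster 9, led by Sprr1a, Lcn2 and Ero1l, it stood at 33.7 plain CPM in vehicle and 60.8 in imeglimin at 11.1 mM, and at 91.8 in vehicle at 3.9 mM. Within cluster 18, which held 3132 of the 4912 beta-like cells of vehicle but 187 of 5510 of imeglimin at 11.1 mM, it stood at 11.4 and 16.47 plain CPM. The Gsto1 ratio within each of these clusters was smaller than that of the class sums, at 16.9 plain CPM in vehicle and 44.9 in imeglimin.

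The thioredoxin and peroxiredoxin genes split as well. Prdx1, a peroxiredoxin that reduces hydrogen peroxide, was nearly flat in TMM-scaled CPM in beta-like cells, at 396 and 376 CPM at 3.9 mM glucose without and with imeglimin and at 369 and 390 CPM at 11.1 mM. In plain CPM it stood at 483 and 371 at 3.9 mM and at 339 and 352 at 11.1 mM in the same order. Srxn1, sulfiredoxin, which reactivates overoxidized peroxiredoxins, stood at 46.7 CPM in vehicle at 3.9 mM glucose and at 75.7 CPM with imeglimin there, 72.5 CPM in vehicle at 11.1 mM and 80.8 CPM with imeglimin at 11.1 mM. Vehicle at 3.9 mM was the low library for Srxn1 and the other 3 lay close together. The log2 ratio of imeglimin at 3.9 mM was 0.70 (0.63 to 0.76), and it fell under 1.5-fold in plain CPM (0.39) and without hormone and mitochondrial genes. At 3.9 mM, Srxn1 stood at 97.7 plain CPM in cluster 3 (2486 cells) and 33.65 in cluster 4 (1464 cells) of imeglimin. It stood at 54.1 in cluster 2 of vehicle (4153 cells). Within cluster 3, vehicle was higher than imeglimin (127.6, 145 cells), while within cluster 2 imeglimin was higher than vehicle (67.4, 167 cells). For glucose under vehicle the Srxn1 log2 ratio was 0.64 (0.57 to 0.70), with 0.23 in plain CPM and 0.57 without the heat shock cluster.

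Txnrd1, cytosolic thioredoxin reductase, stood at 112 and 109 CPM at 3.9 mM glucose without and with imeglimin, and at 192 CPM in vehicle and 153 CPM in imeglimin at 11.1 mM. Both libraries at 11.1 mM glucose were above both at 3.9 mM, and vehicle was the highest. The log2 ratio of glucose was 0.78 (0.74 to 0.82) under vehicle, or 0.37 in plain CPM, and 0.48 under imeglimin, and that of imeglimin at 11.1 mM was −0.33.

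**Figure D2:**
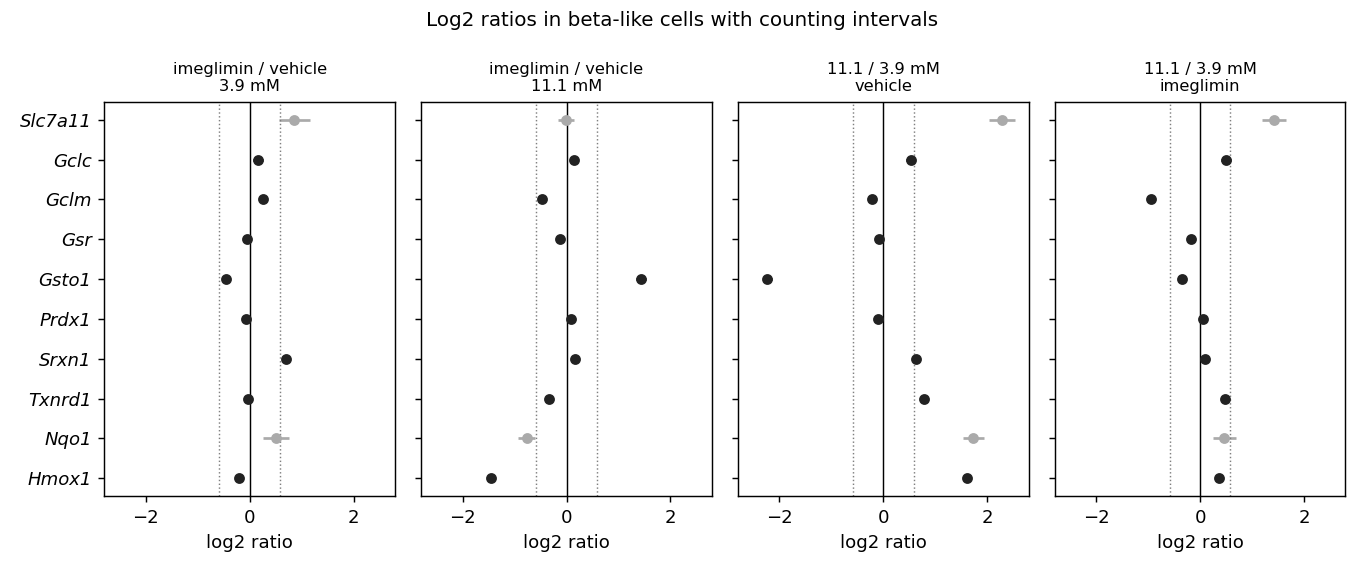
Log2 ratio of each gene in beta-like cells for the 4 contrasts, with 95% exact counting intervals as bars, dotted lines at 1.5-fold and grey points for Slc7a11 and Nqo1, which stayed under 20 CPM. Gsto1 and Hmox1 lie on opposite sides of 0 for imeglimin at 11.1 mM glucose (1.44 and −1.46) and for glucose under vehicle (−2.24 and 1.62).

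Quinone and haem metabolism was represented by Nqo1 and Hmox1. Nqo1, a quinone reductase often used as a readout of NRF2, was scarce in beta-like cells, at 3.44 CPM in vehicle and 4.86 CPM in imeglimin at 3.9 mM glucose and at 11.4 CPM in vehicle and 6.73 CPM in imeglimin at 11.1 mM, from 264, 256, 766 and 477 UMIs. It was highest in vehicle at 11.1 mM, with a log2 ratio of glucose under vehicle of 1.73 (1.53 to 1.94), and it stayed under the level for counting by size.

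Hmox1, haem oxygenase 1, which breaks haem down to biliverdin, iron and carbon monoxide, stood at 94.3 CPM (92.1 to 96.5) in vehicle and 81.8 CPM (79.4 to 84.3) in imeglimin at 3.9 mM glucose, and at 289 CPM (285 to 293) in vehicle and 105 CPM (103 to 107.4) in imeglimin at 11.1 mM. Vehicle at 11.1 mM glucose stood apart as the high library, and the other 3 were within 1.5-fold of each other. Glucose under vehicle gave a log2 ratio of 1.62 (1.58 to 1.66). For imeglimin at 11.1 mM it was −1.46 (−1.502 to −1.42), and it lay between −1.78 and −1.13 over the 10 alternatives. Leaving out the heat shock cluster gave the −1.13.

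Few cells held most of the Hmox1 UMIs in vehicle at 11.1 mM glucose. Beta-like cells with at least 10 Hmox1 UMIs numbered 52 (1.13%) in vehicle and 18 (0.404%) in imeglimin at 3.9 mM glucose, 442 (8.998%) in vehicle at 11.1 mM and 136 (2.47%) in imeglimin at 11.1 mM. These cells held 14.5%, 5.32%, 81.4% and 34.2% of the class's Hmox1 UMIs in the same order. After thinning to 3000 UMIs, 1.53%, 0.668%, 7.65% and 2.50% of cells still had at least 3 Hmox1 UMIs. Before thinning, the share of cells with any Hmox1 UMI went against the CPM, at 62.4%, 46.6%, 40.9% and 47.0%. After thinning it was 25.6%, 18.7%, 20.5% and 18.0%, so vehicle was above imeglimin at both glucose levels. No order of the libraries is read from these shares. The share of beta-like cells with at least 10 UMIs was 0.260%, 0.202%, 2.59% and 0.726% for Txnrd1 in the same order, highest in vehicle at 11.1 mM as for Hmox1, and 10.6%, 8.47%, 7.04% and 1.36% for Gclm.

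**Figure D3:**
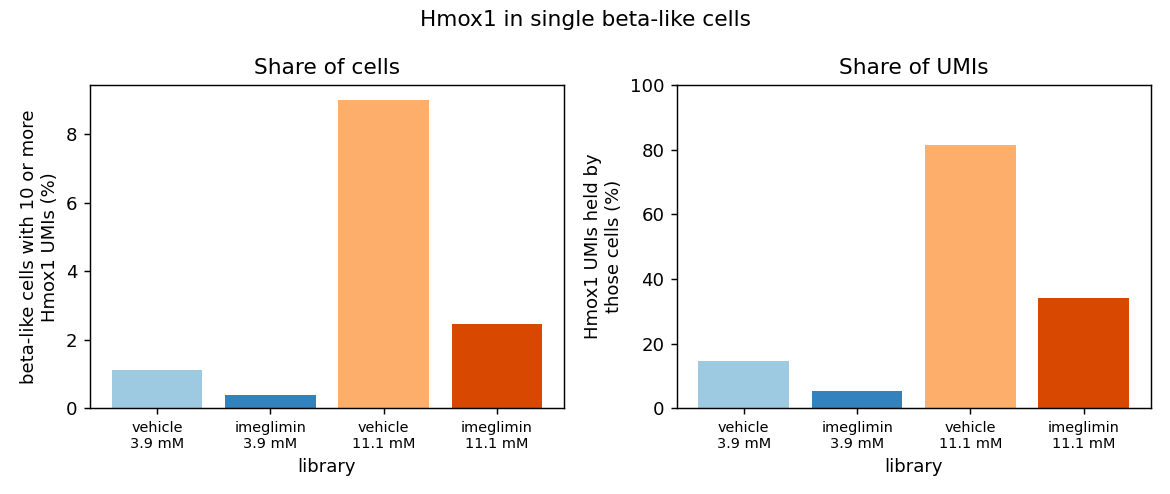
Bars give, for each of the 4 libraries, the percent of beta-like cells with at least 10 Hmox1 UMIs (left) and the percent of the class's Hmox1 UMIs held by those cells (right), with no error bars. Vehicle at 11.1 mM glucose is highest in both panels (8.998% of cells and 81.4% of UMIs), against at most 2.47% and 34.2% in the other 3 libraries.

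Hmox1 differed widely between beta-like clusters. In vehicle at 11.1 mM glucose the plain CPM of Hmox1 was 52.2 in cluster 18 (3132 cells, led by Slc2a2, Mafa and Fkbp1b), 427 in cluster 19 (1093 cells), 852 in cluster 9 (375 cells) and 2571 in cluster 21 (108 cells, led by the heat shock genes Hspa1a, Hspa1b and Hspb1). Hmox1 was itself among the 10 leading genes of clusters 21 and 9, so its levels there describe how these clusters were drawn. In imeglimin at 11.1 mM, Hmox1 stood at 11.5 plain CPM in cluster 18 (187 cells), 104 in cluster 19 (1854 cells), 432 in cluster 9 (527 cells) and 45.3 in cluster 6 (2693 cells, led by Cox6a2, Sema6a and G6pc2), and cluster 21 had 9 cells. In clusters 18 and 19, which hold cells of both libraries and do not have Hmox1 among their 10 leading genes, Hmox1 was lower in imeglimin than in vehicle at 11.1 mM. At 3.9 mM glucose, Hmox1 stood at 103 plain CPM in cluster 2 (4153 cells, vehicle) and at 105 in cluster 3 (2486 cells) and 25.4 in cluster 4 (1464 cells) of imeglimin.

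Macrophage markers in the beta-like sums were lower with imeglimin at both glucose levels. The 7 macrophage markers together stood at 44.3 and 19.5 CPM at 3.9 mM glucose without and with imeglimin and at 47.4 and 17.4 CPM at 11.1 mM, so they were close in both vehicle libraries, where Hmox1 stood at 94.3 and 289 CPM. The lower sum with imeglimin lay in C1qa, at 40.6 CPM without and 7.26 CPM with imeglimin at 11.1 mM, while Cd68 stood at 6.31 and 9.22 CPM and Lyz2 at 0.164 and 0.296 CPM. At 11.1 mM glucose, beta-like C1qa was at 1.5% and 0.339% of its macrophage-like level without and with imeglimin, Cd68 at 1.08% and 1.96%, and Hmox1 at 20.8% and 16.5%. Their part in the Hmox1 ratios was not tested.

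The levels by class put most of these genes highest outside the endocrine cells. The order here uses the median over the 4 libraries, which differ by condition and are not replicates of a class. Hormone transcripts took 17.5% to 43.8% of UMIs in the endocrine sums and 5.14% to 14.4% in the others, which lowers the CPM of other genes in endocrine classes. Class orders without hormone genes were not computed, so the orders here and below hold for CPM of all UMIs only. Hmox1 stood at a median of 810 CPM in macrophage-like, 222 in stromal-like, 139 in endothelial-like, 99.6 in beta-like, 74.6 in delta-like and 23.9 in alpha-like cells. The macrophage-like range lay above all others, while each later neighbour in that order overlapped the next. Prdx1 ran from 3656 CPM in macrophage-like and 1430 in stromal-like to 843 in endothelial-like, 524 in delta-like, 383 in beta-like and 327 in alpha-like cells, and no neighbouring ranges overlapped. Slc7a11 ran from 237 CPM in macrophage-like, 76.2 in stromal-like and 19.1 in endothelial-like to 8.43 in delta-like, 7.11 in beta-like and 3.09 in alpha-like cells. Only the step from endothelial-like to delta-like cells was free of overlap for Slc7a11.

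Nqo1 was highest in endothelial-like (44.6 CPM) and stromal-like cells (26.4 CPM) and stood at 3.81 CPM in alpha-like, 5.80 CPM in beta-like, 6.34 CPM in delta-like and 8.17 CPM in macrophage-like cells, with no overlap between the former 2 and the latter 4 classes. Gclc was highest in endothelial-like cells (113 CPM) and lowest in alpha-like (33.5 CPM) and beta-like cells (33.0 CPM), and each neighbour in its order overlapped the next. Gsr was highest in macrophage-like cells (241 CPM), clear of endothelial-like cells (124 CPM), and Srxn1 was highest in stromal-like (131 CPM) and lowest in alpha-like cells (31.3 CPM). Gsto1 stood at 104 CPM in macrophage-like, 92.7 in stromal-like, 56.4 in beta-like, 41.7 in delta-like, 34.9 in endothelial-like and 15.6 in alpha-like cells, with every neighbour overlapping. In CPM of all UMIs, Txnrd1 was lowest in beta-like cells (132 CPM) and highest in macrophage-like cells (228 CPM), and for Gclm the ranges of the 6 classes overlapped, with medians of 290 to 332 CPM.

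**Figure D4:**
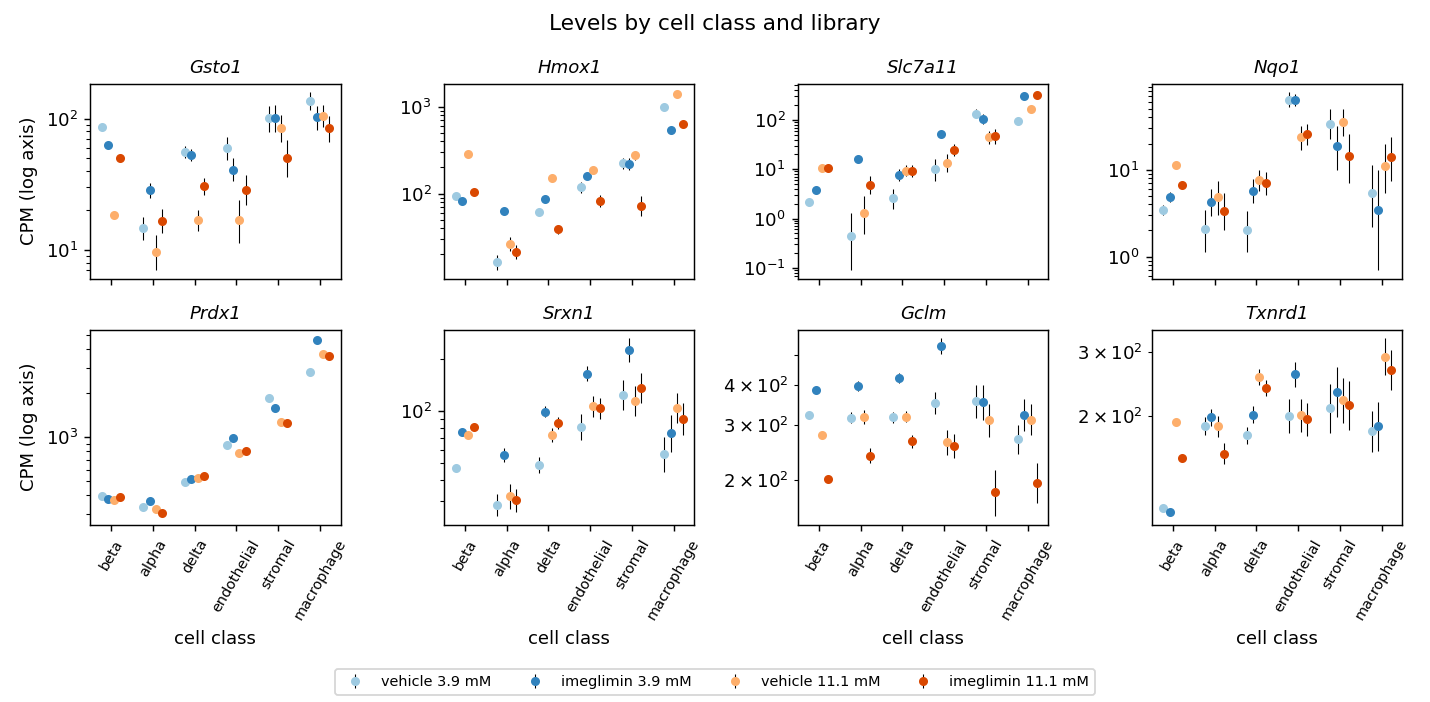
Levels of 8 of the genes (all but Gclc and Gsr) by cell class and library in TMM-scaled CPM on a log axis, with 95% exact Poisson intervals. Hmox1, Prdx1 and Slc7a11 are highest in macrophage-like cells (medians 810, 3656 and 237 CPM), and Gsto1 in vehicle at 11.1 mM glucose is low in beta-like, delta-like and endothelial-like cells (18.4, 16.8 and 16.8 CPM).

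In delta-like cells (441 to 614 per library), Gsto1 was lowest and Hmox1 highest in vehicle at 11.1 mM glucose, as in the beta-like class. Delta-like Gsto1 stood at 55.8 and 52.9 CPM at 3.9 mM glucose without and with imeglimin and at 16.8 and 30.5 CPM at 11.1 mM. Delta-like Hmox1 stood at 61.8 and 87.4 CPM at 3.9 mM and at 150 and 38.7 CPM at 11.1 mM, with a log2 ratio of imeglimin at 11.1 mM of −1.95 (−2.16 to −1.75). Few cells carried it: the 1% of delta-like cells with the most Hmox1 UMIs held 39.6% of them in vehicle at 11.1 mM. A single cell there had 122 UMIs. In imeglimin at 11.1 mM that 1% held 13.1%. The share of delta-like cells with any Hmox1 UMI was 29.5% in vehicle and 28.9% in imeglimin at 11.1 mM. After thinning these shares were 11.7% and 7.95%. At 3.9 mM the delta-like Hmox1 ratio of imeglimin was 0.50, against −0.20 in beta-like cells, and that of glucose under imeglimin was −1.18, against 0.36. Insulin transcripts were present in these sums, as given above, and their part in these values was not tested. With imeglimin at 11.1 mM glucose, 0 of the 7 genes at 50 CPM were at least 1.5-fold higher against 3.48% of 3075 genes, and 1 (Hmox1) was lower against 3.19%. At 3.9 mM, 1 of 8 (Srxn1) was higher against 5.59% of 3200 genes and 0 were lower against 5%. Srxn1 in delta-like cells stood at 48.8 CPM in vehicle and 99.6 CPM in imeglimin at 3.9 mM, a log2 ratio of 1.03 (0.84 to 1.22). Hmox1 at 11.1 mM and Srxn1 at 3.9 mM each reached 50 CPM in a single library, so each could be counted only in the direction seen.

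In alpha-like cells (614 to 970 per library), the imeglimin ratios at 3.9 mM glucose pointed upward for several genes. With imeglimin at 3.9 mM, 2 of the 6 genes at 50 CPM (Hmox1 and Srxn1) were at least 1.5-fold higher against 12.1% of 3302 genes, and 0 were lower against 7.54%. Both genes reached 50 CPM only in imeglimin at 3.9 mM, so they could be counted only as higher. At 11.1 mM, 0 of 4 were higher against 5.78% of 3168 genes and 0 were lower against 5.08%. Alpha-like Hmox1 stood at 16.1 CPM in vehicle and 62.6 CPM in imeglimin at 3.9 mM, and at 26.4 and 21.3 CPM at 11.1 mM, so that imeglimin at 3.9 mM was the high library, with a log2 ratio of 1.96 (1.65 to 2.27). Alpha-like Srxn1 stood at 28.7, 55.8, 32.2 and 30.5 CPM in vehicle and imeglimin at 3.9 mM and vehicle and imeglimin at 11.1 mM.

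Slc7a11 was the most uneven of the 10 genes in alpha-like cells. Its sums were 3 UMIs in vehicle and 121 in imeglimin at 3.9 mM glucose and 6 and 26 UMIs at 11.1 mM, or 0.444, 16.1, 1.32 and 4.86 CPM, all under the level for counting by size. The log2 ratio of imeglimin at 3.9 mM was 5.18, with a counting interval of 3.60 to 7.48. After thinning, 0.162%, 3.36%, 0.524% and 1.82% of alpha-like cells had a Slc7a11 UMI. Macrophage-like Slc7a11 was higher with imeglimin as well, and alpha-like Slc7a11 in imeglimin at 3.9 mM was at 5.26% of its macrophage-like level, beside 1.47% for C1qa, 2.49% for Cd68 and 0% for Lyz2.

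The alpha-like class was itself filled unevenly. Cluster 7 held 622 of 638 alpha-like cells of vehicle at 3.9 mM and 575 of 614 of vehicle at 11.1 mM, a sub-cluster of cluster 8 led by Gcg, Ttr and Etv1 held 958 of 970 of imeglimin at 3.9 mM, and imeglimin at 11.1 mM had 393 cells in the former and 403 in the latter. Within imeglimin at 11.1 mM, Slc7a11 stood at 1.717 plain CPM (5 UMIs) in cluster 7 and 8.215 (21 UMIs) in the sub-cluster, and Hmox1 at 13.74 and 28.95. The 3.9 mM contrast in alpha-like cells is thus also a contrast of those clusters.

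The non-endocrine classes held 78 to 422 cells per library, and their sums also held insulin RNA, with Ins2 at 19100 to 59860 CPM in endothelial-like, 30500 to 82220 CPM in stromal-like and 26590 to 67010 CPM in macrophage-like cells. The part of beta-cell RNA in the ratios of these classes was not tested. Hmox1 was lower with imeglimin at 11.1 mM glucose in endothelial-like (188 CPM in vehicle, 83.0 CPM in imeglimin), stromal-like (275 and 72.4 CPM) and macrophage-like cells (1389 and 635 CPM), with log2 ratios of −1.18 (−1.46 to −0.90), −1.93 (−2.37 to −1.502) and −1.13 (−1.27 to −0.99). Counted with beta-like and delta-like cells, that made 5 of 6 classes, and the alpha-like ratio was −0.31 (−0.69 to 0.07). In vehicle at 11.1 mM, the 1% of cells with the most Hmox1 UMIs held 23.9% of them in endothelial-like cells. That share was 37.0% in stromal-like and 8.92% in macrophage-like cells. At 3.9 mM the Hmox1 ratio was −0.89 (−1.04 to −0.73) in macrophage-like cells and 0.43 in endothelial-like cells.

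Srxn1 was higher with imeglimin at 3.9 mM glucose by log2 ratios of 1.02 (0.74 to 1.31) in endothelial-like and 0.86 (0.49 to 1.24) in stromal-like cells, and by 0.40 (−0.10 to 0.90) in macrophage-like cells, whose interval includes 0. Slc7a11 in macrophage-like cells stood at 95.7 CPM in vehicle and 306 CPM in imeglimin at 3.9 mM and at 167 and 320 CPM at 11.1 mM, with log2 ratios of 1.68 (1.37 to 1.998) and 0.94 (0.66 to 1.22). Endothelial-like Slc7a11 stood at 10.0, 52.2, 13.5 and 24.7 CPM in vehicle and imeglimin at 3.9 mM and vehicle and imeglimin at 11.1 mM. Endothelial-like Nqo1 followed glucose in the direction opposite to beta-like Nqo1, at 64.1 and 63.5 CPM at 3.9 mM and 23.5 and 25.8 CPM at 11.1 mM without and with imeglimin. The glucose ratio of Gsto1 under vehicle was −1.82 in endothelial-like, −0.24 in stromal-like and −0.38 in macrophage-like cells, beside −2.24 in beta-like and −1.74 in delta-like cells.

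The wider pathway was described from 97 further genes in 9 lists, of which 47 to 50 reached 20 CPM in beta-like cells in a contrast. With imeglimin at 11.1 mM glucose, 2 of 47 were at least 1.5-fold higher and 8 lower (median log2 ratio −0.06), beside the 5.23% and 4.59% of all genes given above. At 3.9 mM, 5 of 48 were higher and 5 lower (median 0.01), beside 12.5% and 10.4% of all genes. High against low glucose had 9 of 47 higher and 10 lower under vehicle (median −0.10), beside 10.1% and 19.7%, and 6 of 50 higher and 11 lower under imeglimin (median −0.09), beside 15% and 24%.

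Glutathione transferases were the list with the most lower genes for imeglimin. At 11.1 mM glucose 4 of 6 were at least 1.5-fold lower and 0 higher, with a median log2 ratio of −0.72, beside 4.59% of all genes lower and 5.23% higher. At 3.9 mM 3 of 6 were lower and 0 higher, beside 10.4% and 12.5%. Gstm1, a mu-class transferase, stood at 144 CPM in vehicle and 57.3 CPM in imeglimin at 3.9 mM and at 82.3 and 36.5 CPM at 11.1 mM, so imeglimin was lower at both glucose levels. Gstp1, a pi-class transferase with the near-identical copy Gstp2 that leaves its count uncertain, stood at 52.4 CPM in vehicle and 20.04 CPM in imeglimin at 11.1 mM. Gstt1 stood at 54.3 and 30.0 CPM at 3.9 mM and at 40.1 and 22.6 CPM at 11.1 mM. These transferases were thus on the other side from Gsto1 at 11.1 mM.

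Of the NRF2 regulators, 3 of 9 were at least 1.5-fold higher with imeglimin at 3.9 mM glucose and 0 lower, beside 12.5% and 10.4% of all genes, and 1 of 8 was higher at 11.1 mM with 0 lower, beside 5.23% and 4.59%. These counts rest on TMM. Under plain CPM and means of per-cell CPM as well, only Nfe2l2 stayed at least 1.5-fold higher at 3.9 mM, and none did at 11.1 mM. Nfe2l2 stood at 35.4 CPM in vehicle and 69.4 CPM in imeglimin at 3.9 mM and at 31.6 and 35.2 CPM at 11.1 mM. Keap1, named after its values were seen, stood at 54.0 and 50.3 CPM at 3.9 mM and at 62.1 and 58.6 CPM at 11.1 mM, so it differed little between libraries in TMM-scaled CPM. NRF2 is regulated mainly through its protein, which was not measured.

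In the list of cystine supply and glutathione synthesis and breakdown, Slc3a2, the partner subunit of xCT and of other amino acid transporters, stood at 330 CPM in vehicle and 614 CPM in imeglimin at 3.9 mM glucose and at 157 and 232 CPM at 11.1 mM. Its glucose order was thus the reverse of that of Slc7a11. Cbs, which makes cystathionine from homocysteine, stood at 4.02 CPM in vehicle at 3.9 mM, 30.3 CPM in vehicle at 11.1 mM and 11.1 CPM in imeglimin at 11.1 mM. Ggct, which breaks down gamma-glutamyl peptides, was lower at 11.1 mM than at 3.9 mM glucose, at 14.2 against 32.8 CPM under vehicle and 16.5 against 39.1 CPM under imeglimin.

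Glutathione peroxidases and glutaredoxins had 0 genes at least 1.5-fold higher with imeglimin and 2 of 7 lower at each glucose level, beside 4.59% of all genes lower at 11.1 mM and 10.4% at 3.9 mM. Gpx2 stood at 44.0 CPM in vehicle and 23.9 CPM in imeglimin at 3.9 mM glucose, and Glrx, glutaredoxin 1, at 35.3 and 15.7 CPM. Glrx3 was lower at 11.1 mM than at 3.9 mM glucose, at 52.0 against 107.2 CPM under vehicle and 62.1 against 127 CPM under imeglimin.

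In the thioredoxin and peroxiredoxin list, Txnip, which binds and inhibits thioredoxin and is known to respond to glucose, stood at 9.73 CPM in vehicle and 28.2 CPM in imeglimin at 3.9 mM and at 49.7 CPM in vehicle and 20.8 CPM in imeglimin at 11.1 mM. Imeglimin was thus higher at 3.9 mM and lower at 11.1 mM. Txnip was up to 15.2 times higher in another class, and the part of free RNA in its beta-like level was not tested. In the list of NADPH supply, no gene was at least 1.5-fold apart for imeglimin. Idh1 was higher at 11.1 mM than at 3.9 mM glucose, at 42.9 against 18.4 CPM under vehicle and 33.0 against 13.1 CPM under imeglimin, and so was Pgd of the pentose phosphate pathway, at 35.0 against 15.8 CPM and 29.4 against 15.7 CPM. Idh2, the mitochondrial enzyme, was lower, at 137 against 277 CPM under vehicle and 130 against 322 CPM under imeglimin. Superoxide dismutases and catalase, haem and iron genes and the other NRF2 targets had 0 genes at least 1.5-fold apart for imeglimin at either glucose level, with 2, 4 to 5 and 2 genes tested.

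The genes most like each of these in pattern were sought among 6358 genes over 24 points, the 6 classes in the 4 libraries, as Pearson's correlation of log2(CPM + 5) after centring each class. The points share libraries and depth, so the values are descriptions. Gsto1 was most like Selenow (0.92), Tmem192 (0.90) and Ndufb9 (0.90). Gclm was most like Rpsa (0.86) and Mrpl38 (0.86), Txnrd1 like Pgd (0.88) and Dbi (0.85), and Srxn1 like Ergic2 (0.82). Hmox1 had lower values, 0.70 with Gstp1 and 0.70 with Sf3b6, as had Gsr (0.69 with Slc48a1), Gclc (0.76 with Zfp329) and Prdx1 (0.78 with Yipf1).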

How the data were processed

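The deposited values are raw UMI counts per gene for 8073 to 10134 barcodes per library; per the submitters' processing notes they come from Cell Ranger 6.0.2 on mm10, and the use of strand is not given in the sources used here. A cell was kept from 1000 UMIs and 500 genes upwards if its mitochondrial share did not pass 20%. Scrublet called 0 doublets in every library and so had not worked, and no barcode was removed as a doublet. Libraries shared 19 to 34 barcodes per pair. Cells were clustered with Scanpy 1.11.5 (2000 variable genes, 30 principal components, 15 neighbours, Leiden resolution 1, mixed clusters split again at 0.3), and classes were named from marker lists; the details of the naming rule were set after the clusters were seen. UMIs were summed per class and library and scaled to CPM by TMM (edgeR 4.0.16 in R 4.3.3), with 95% exact Poisson intervals for levels, exact Clopper-Pearson intervals for shares and for ratios, and a size threshold of 1.5-fold. The intervals cover counting error only, and treat UMIs as independent although cells vary. With 1 library per condition there is no test. The scripts were tested on simulated data. The 10 genes and all lists were chosen with earlier results of these data known. All 10 genes are named, and from the other lists up to 5 genes per contrast and direction that were at least 1.5-fold apart under TMM, plain CPM and means of per-cell CPM. Alternatives were plain CPM, CPM without hormone and mitochondrial genes, DESeq2 1.42.0 size factors, means of per-cell CPM, thinning to 3000 UMIs, deep cells only (from 10000 UMIs, mitochondrial share up to 5%), removal of the highest doublet scores, Leiden resolution 0.5, clusters of each library alone, and removal of heat shock clusters.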

Additional observations from a re-analysis of the deposited data

Results flagged for a closer look

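In beta-like cells Gsto1, Gclm and Prdx1, of the genes that reached 20 CPM, had imeglimin ratios of opposite sign at the glucose levels. Each ratio came from 1 library per condition, and the difference was not tested for any of them. The share of all genes with such a change of sign was not counted, so their number is not read as a result. Gsto1 had a log2 ratio of 1.44 at 11.1 mM and −0.46 at 3.9 mM glucose. Gclm had −0.46 at 11.1 mM and 0.26 at 3.9 mM, where plain CPM gave −0.04. Prdx1 had 0.083 at 11.1 mM and −0.076 at 3.9 mM, both small, and −0.09 at 11.1 mM without hormone and mitochondrial genes.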

How the results depend on the processing

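The 20 ratios of at least 1.5-fold among the 10 genes that reached the level for counting in beta-like, alpha-like and delta-like cells kept their direction under the 9 or 10 alternatives run for each. No alpha-like or delta-like cell lay in a heat shock cluster, so leaving these clusters out could not move the ratios of those classes. The doublet scores used for another alternative came from Scrublet, which had not worked. The alternatives were not run for ratios of Slc7a11 and Nqo1 or of the other classes. For the wider pathway genes only plain CPM and means of per-cell CPM were run, to choose the genes named. The counts given for their lists rest on TMM. For counts of the 8 genes in beta-like cells, plain CPM gave 0 higher and 1 lower (Gsto1) for imeglimin at 3.9 mM, against 1 and 0, and 1 higher and 2 lower for glucose under vehicle, against 3 and 1. CPM without hormone and mitochondrial genes gave 0 higher and 1 lower for imeglimin at 3.9 mM, 2 lower for imeglimin at 11.1 mM against 1, and 2 higher for glucose under imeglimin against 0, where means of per-cell CPM gave 3 and thinning gave 1. The shares of all genes were counted under TMM only. The counts under these alternatives thus have no share beside them and are not read as results about these genes. The Srxn1 ratio of imeglimin at 3.9 mM ran from 0.39 to 0.75, that of glucose under vehicle from 0.23 to 0.81, and the Txnrd1 ratio of glucose under vehicle from 0.37 to 0.95. The Gclm ratio of glucose under imeglimin ran from −1.07 to −0.74. The cause of these shifts was not tested beyond the change of scaling itself. Clusters of each library alone gave a delta-like class in 1 library only, so that alternative is not given for delta-like cells. No paired analysis was possible because each condition had 1 library. Depth limits Slc7a11 and Nqo1 in endocrine cells, where sums were as low as 3 UMIs, and the small classes.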
